A study of Mus musculus with 12 samples.

Results

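The clustered histone genes of the mouse were followed through peak lists of small-intestinal crypts and villi. They were the protein-coding genes whose GENCODE M21 symbol starts with Hist1h, Hist2h, Hist3h or Hist4h, which gave 67 of 21866 protein-coding genes with an annotated start site. Of these, 6 encode the linker histone H1, 18 encode H2A, 18 encode H2B, 12 encode H3 and 13 encode H4. The study asked where modified histone H3 lies along the genome of a tissue in which H3 tails are cleaved during differentiation. It used ChIP-Rx, which is ChIP-seq with a fixed share of foreign chromatin, here 5% of Drosophila S2 chromatin, added to each immunoprecipitation. The labels separate intestinal crypts from intestinal villi of Mus musculus and give no genotype, strain, age, sex or treatment, so the groups as labelled differed only in the compartment. Each compartment and modification had 1 library, so differences between crypts and villi could not be set against replicates and carry no test. Peaks of H3K4me3, H3K4me1, H3K27me3 and H3K9me3 were used, and a peak was assigned to a gene when it came within 1 kb of a start site.

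Replication-dependent histone genes supply the histones that package new DNA and are transcribed mainly during S phase, so dividing cells use them most. Crypts hold the stem and dividing progenitor cells of the intestinal epithelium, whereas villi are covered by differentiated cells that no longer divide. These genes typically lack introns, and their mRNAs typically end in a conserved stem-loop, bound by SLBP, in place of a poly(A) tail. H3K4me3 marks active or poised promoters, H3K4me1 marks enhancers and the flanks of promoters, H3K27me3 is laid down by Polycomb at silenced genes, and H3K9me3 marks heterochromatin.

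The stem-loop was used to check that the genes named by symbol carry the hallmark of replication-dependent histone mRNAs, and the forms found are shown here. The letters searched were a stem of GGCTCT, a loop of TTTN and a stem of AGAGCC, with up to 1 mismatch, on the coding strand in the 150 bases after the stop codon of GRCm38. Capitals mark the stem-loop and lower case marks 5 bases on either side, and the coordinates are those of the capitals.
Hist1h1b, chr13:21779837-21779852, minus strand: ccaaaGGCTCTTTTCAGAGCCaccta
Hist1h2bg, chr13:23571843-23571858, plus strand: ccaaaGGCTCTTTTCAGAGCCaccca
Hist1h3d, chr13:23576244-23576259, plus strand: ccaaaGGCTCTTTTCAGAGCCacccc
Hist1h4c, chr13:23698089-23698104, minus strand: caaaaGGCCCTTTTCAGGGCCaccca
Hist1h4j, chr13:21735437-21735452, plus strand: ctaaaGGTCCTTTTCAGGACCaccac
Hist3h2ba, chr11:58949349-58949364, plus strand: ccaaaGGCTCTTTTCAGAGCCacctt
Hist1h2aa, chr13:23934891-23934906, plus strand: aaaaaGGCTCTTTTCAGAGCCacctt
The consensus was found with up to 1 mismatch at 53 of the 67 genes and without a mismatch at 51. None of the 13 H4 genes matched it. All 13 carried another paired stem instead, with a left arm of GGCCCT at 11 genes and of GGTCCT at 2, Hist1h4j and Hist1h4b. In an unplanned step the stem positions were then loosened to allow these arms, so the next count is no separate check. How often the looser pattern follows other stop codons was not computed. With it, 66 of 67 genes carried a stem-loop, and only Hist2h2be, an H2B gene of the Hist2 cluster, had none within 150 bases of its stop codon. The testis genes Hist1h1t, Hist1h2aa and Hist1h2ba carried it too, so the sequence does not separate them from the other members.

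Promoter sequences were taken from RefSeq (GRCm38.p6), from 250 bases before to 50 after the start, and matched 62 of the 67 genes. The motifs searched were the CCAAT box, the TATA box as TATAAA, and the octamer ATTTGCAT, which is bound by POU2F1. For the H4 activator HINFP only the word CGGACG was searched, and no other form of its site was. Both strands were searched, so a motif may also stand as its reverse complement, and each was counted on its own, also where it overlapped another. The promoters printed are those on which the results turn: Hist1h2bg lies under the widest H3K4me3 peak, Hist1h4b under a narrow peak of an H4 gene, Hist1h2ba is a testis gene without a peak, and Hist3h2ba is the only member with H3K27me3. Capitals mark the motifs.
Hist1h2bg, chr13:23571150-23571449, plus strand: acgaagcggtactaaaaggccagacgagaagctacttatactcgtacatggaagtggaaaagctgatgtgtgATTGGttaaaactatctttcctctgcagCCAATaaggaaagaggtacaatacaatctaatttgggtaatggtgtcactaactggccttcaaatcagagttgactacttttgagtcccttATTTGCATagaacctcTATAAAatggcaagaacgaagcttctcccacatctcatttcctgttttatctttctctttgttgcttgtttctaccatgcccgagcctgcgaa
Hist1h4b, chr13:23756687-23756986, plus strand: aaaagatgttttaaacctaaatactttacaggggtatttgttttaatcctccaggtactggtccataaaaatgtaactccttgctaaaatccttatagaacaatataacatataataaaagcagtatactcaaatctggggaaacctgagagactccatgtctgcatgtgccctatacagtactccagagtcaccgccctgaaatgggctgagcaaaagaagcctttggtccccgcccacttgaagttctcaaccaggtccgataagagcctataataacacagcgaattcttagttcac
Hist1h2ba, chr13:23934107-23934406, minus strand: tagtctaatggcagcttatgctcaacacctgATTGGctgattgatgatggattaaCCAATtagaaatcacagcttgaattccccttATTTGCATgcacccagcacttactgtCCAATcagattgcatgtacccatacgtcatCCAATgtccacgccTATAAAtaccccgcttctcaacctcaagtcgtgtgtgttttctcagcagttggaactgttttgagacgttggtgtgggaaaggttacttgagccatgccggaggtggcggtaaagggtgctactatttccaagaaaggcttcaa
Hist3h2ba, chr11:58948661-58948960, plus strand: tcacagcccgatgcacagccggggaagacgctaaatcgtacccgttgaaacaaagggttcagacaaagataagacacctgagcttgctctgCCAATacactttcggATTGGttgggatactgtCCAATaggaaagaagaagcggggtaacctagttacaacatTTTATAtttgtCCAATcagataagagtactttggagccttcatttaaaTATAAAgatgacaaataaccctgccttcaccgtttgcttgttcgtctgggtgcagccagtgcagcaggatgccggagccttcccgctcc
CCAAT was present in 53 of the 62 promoters (85.5%), against 37.9% of 27025 RefSeq promoters of the same length. All of the matched H1, H2A, H2B and H3 promoters held it, but only 3 of 12 H4 promoters, those of Hist1h4a, Hist1h4c and Hist1h4d. TATAAA was present in 35 (56.5%, against 14.2% of all promoters). The octamer was present in 14 (22.6%, against 1.75%), namely in 7 H2A and 7 H2B promoters and in no H1, H3 or H4 promoter. The promoters of neighbouring H2A and H2B genes can overlap, so the same site can count for both. This was so for the octamer at Hist1h2ah and Hist1h2bk, and the motif counts are not all of separate sites. CGGACG was present in 2 (3.23%, against 6.59%), those of Hist1h4a and of the H2A gene Hist3h2a. It was thus found in 1 of 12 H4 promoters. Other forms of the HINFP site were not searched, so this count does not show whether H4 promoters hold one.

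Over the full lists, most clustered histone genes had called peaks of both H3K4me3 and H3K4me1 in crypts and in villi, and almost none carried a repressive mark. In crypts, 58 of 67 members (86.6%, 95% Wilson interval 76.4 to 92.8%) had an H3K4me3 promoter peak, against 57.7% of all protein-coding genes. In villi, 59 members (88.1%, 78.2 to 93.8%) had one, against 57.9%. H3K4me1 was found at 61 members in crypts (91.0%, 81.8 to 95.8%), against 57.8% of coding genes, and at 58 in villi (86.6%, 76.4 to 92.8%), against 56.1%. H3K27me3 was found at 1 member in each compartment, against 13.1% of coding genes in crypts and 16.1% in villi. No member had H3K9me3 (upper Wilson bound 5.42%), and only 0.380% of coding genes in crypts and 0.311% in villi had it. The H3K4me3 counts depended on the peaks used. In the top 50% of each list by score, H3K4me3 was called at 25 members in crypts (37.3%, 26.7 to 49.3%), 33 in villi (49.3%, 37.7 to 60.9%) and 23 in both (34.3%), which is close to the 40.9%, 41.6% and 38.9% of coding genes. H3K4me1 was called there at 43 members in crypts (64.2%, 52.2 to 74.6%), 48 in villi (71.6%, 59.9 to 81.0%) and 37 in both (55.2%), against 35.2%, 36.2% and 26.2% of coding genes. A coding gene counted if any of its start sites had a peak, and 63 of the 67 members have 1 start site. With the 5′ end alone, the member counts were the same, and the shares of coding genes over the full lists were 54.7% for H3K4me3 in crypts, 54.9% in villi, and 54.0% and 51.9% for H3K4me1. Intervals cover counting error only, and they are too narrow because neighbouring members share peaks. The tissue was not sorted into cell types, so fewer cells that carry a mark and less of the mark per cell cannot be told apart.

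**Figure D1:**
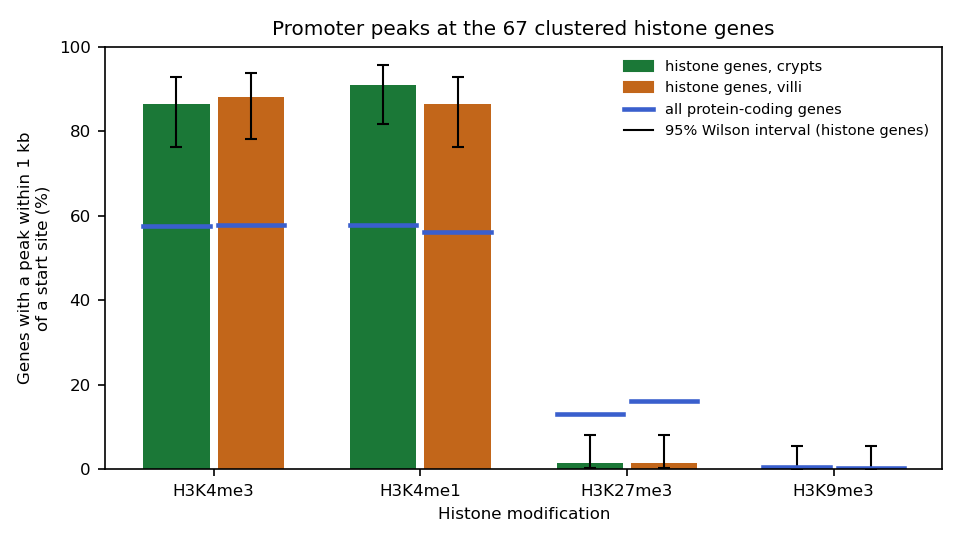
Share of the 67 clustered histone genes with a peak within 1 kb of a start site (y axis, percent) for each modification (x axis) in crypts (green) and villi (orange). Black bars are 95% Wilson intervals and blue lines give the share of all 21866 protein-coding genes, which lie below the bars for H3K4me3 and H3K4me1 and above them for H3K27me3.

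Marker promoters were checked against the compartment labels. All 6 crypts markers (Lgr5, Olfm4, Ascl2, Mki67, Sox9 and Axin2) had H3K4me3 in crypts, and 5 had it in villi, where Olfm4, with a peak of 4388 bp in crypts, had none. The villi peaks of these 5 were narrower, by a median of −0.54 on the log2 scale of villi over crypts width. All 6 enterocyte markers had H3K4me3 in both compartments, with a median of 0.18 on that scale, and 1 of them was narrower in villi. The lymphocyte markers Ptprc, Cd3e and Cd8a had no H3K4me3 in crypts, and in villi they had peaks of 1608, 1181 and 829 bp. Of 4 mesenchyme and muscle markers, 1 had H3K4me3 in crypts and 2 in villi, while Acta2 and Des had none. The part of lymphocytes and mesenchyme in the villi peaks of the histone genes was not tested.

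The combination of marks was the same in both compartments at 63 of 67 members (94.0%, 85.6 to 97.7%), against 84.5% of coding genes. H3K4me3 and H3K4me1 were called together at 58 members in crypts (52.5% of coding genes) and at 56 in villi (50.1%), and at 55 members (82.1%, 71.3 to 89.4%) these and no other mark were called in both compartments, against 40.0% of coding genes. H3K4me3 was present in both compartments at 58 members (56.6% of coding genes), in crypts only at none (1.06%) and in villi only at 1, Hist3h2ba (1.27%). H3K4me1 was present in both compartments at 58 members (52.2% of coding genes), in crypts only at 3 (5.68%) and in villi only at none (3.95%). None of the 4 marks was called at 6 members (8.96%) in crypts and at the same 6 in villi, against 32.5% and 30.8% of coding genes.

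**Figure D2:**
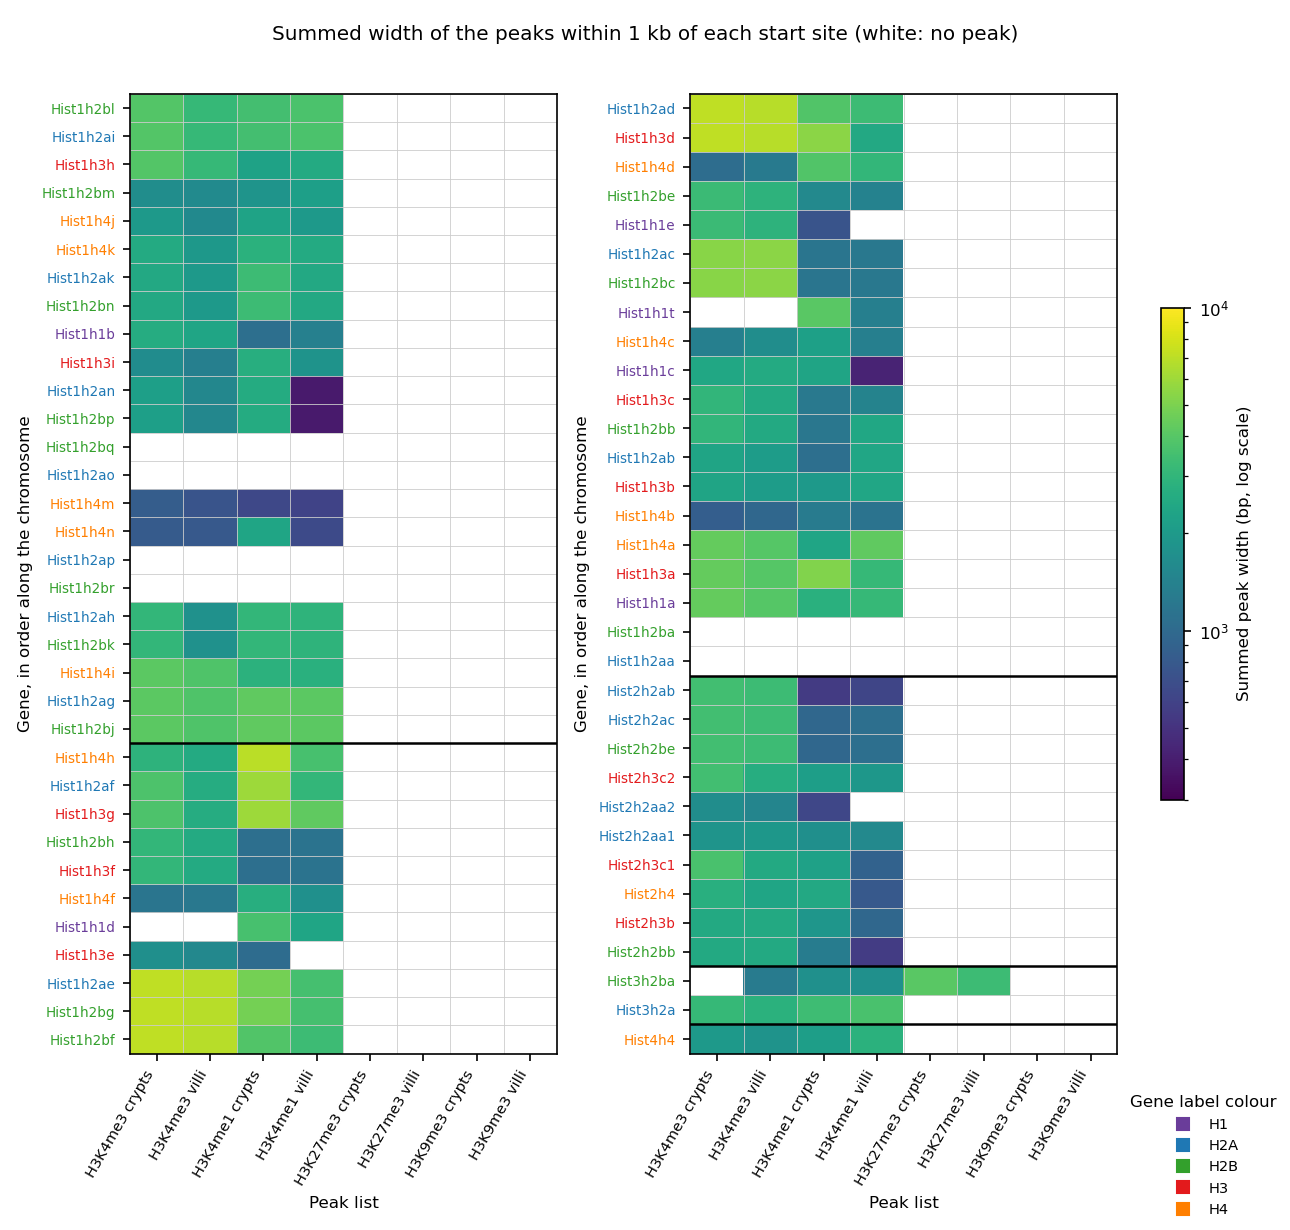
Summed width in bp (colour, log scale) of the peaks within 1 kb of the start site of each of the 67 genes (rows, in chromosomal order, label colour by histone class, black lines between clusters) in the 8 peak lists (columns). White cells hold no peak. The 4 columns on the left are nearly filled, and the 4 on the right hold peaks at Hist3h2ba only.

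Among the linker histone genes, which compact the nucleosome fibre, 4 of 6 had H3K4me3 in both compartments. The peak at Hist1h1b spanned 2636 bp in crypts and 2354 bp in villi. That at Hist1h1c measured 2418 bp in crypts and 2576 bp in villi, and was thus among the few that were wider in villi. Hist1h1t, the linker histone of spermatocytes, had no H3K4me3 promoter peak. Its nearest H3K4me3 peak lay 1658 bp away in crypts and 1363 bp away in villi and belonged to Hist1h4c. It did have H3K4me1, over 4066 bp in crypts and 1360 bp in villi. Hist1h1d had H3K4me1 alone at its annotated start site, over 3621 bp in crypts and 2358 bp in villi. Its start codon lies 1828 bp downstream of that site, and there H3K4me3 was called over 1999 bp in crypts and over 2129 bp in villi.

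For H2A, 15 of 18 genes had H3K4me3 in both compartments, and for H2B 14 of 18 in crypts and 15 of 18 in villi. The H2A and H2B genes lie mostly in head-to-head pairs, with 12 such pairs whose starts are 176 to 306 bp apart. The start sites of 9 of the 12 pairs were spanned by 1 H3K4me3 peak in crypts, and likewise of 9 in villi. H3K4me1 was called between the starts at only 2 pairs in crypts and 3 in villi. The pairs without a spanning peak were Hist1h2bq with Hist1h2ao, Hist1h2ap with Hist1h2br, and Hist1h2ba with Hist1h2aa. Hist1h2ba and Hist1h2aa encode the testis forms of H2B and H2A. Their nearest H3K4me3 peak was 3085 and 3391 bp away in crypts and 3045 and 3351 bp away in villi. Under 20% of the 50-base words around their starts recur in the genome. Hist1h2be, an H2B gene, was counted through an annotated start 35168 bp from its start codon, under a peak it shares with Hist1h1e, but H3K4me3 was also called at its start codon, over 2692 bp in crypts and 2599 bp in villi.

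The other pairs without a peak lie in repeated sequence. A run of 10523 bp on chromosome 13, chr13:21801258-21811780, holds the starts of Hist1h2bq, Hist1h2ao and Hist1h4m, and a run of the same length at chr13:21832162-21842684 holds those of Hist1h4n, Hist1h2ap and Hist1h2br. Each 50-base word in these runs occurs elsewhere in the genome. No base of either run was covered by a peak in any of the 8 lists. Around the starts of Hist1h2bq, Hist1h2ao, Hist1h2ap and Hist1h2br, 100% of the words were repeated. At Hist1h4m and Hist1h4n, whose starts lie just inside the runs, 93.0% and 92.0% were repeated, and the H3K4me3 peaks assigned to them lay wholly outside. These were the narrowest at any member in crypts beside that of Hist1h4b (850 bp), with 816 bp at Hist1h4n and 841 bp at Hist1h4m. In villi they measured 796 and 744 bp. The authors kept 1 alignment per read pair, and the part of this choice in the empty runs was not tested.

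The share of repeated words varied among the other members too. Of 23 members with 20 to 50% of repeated words, 23 had H3K4me3 in each compartment. Of 34 members with fewer, 29 had it in crypts and 30 in villi, and of 10 members with more, 6 had it in each. The near-identical pairs of the Hist2 cluster kept their peaks. At Hist2h3c1 and Hist2h3c2, which encode H3, 78.5% and 77.6% of the words were repeated, and the summed H3K4me3 width was 3671 and 3472 bp in crypts and 2540 and 2678 bp in villi. At Hist2h2aa1 and Hist2h2aa2, which encode H2A, 54.4% and 57.2% were repeated, with H3K4me3 over 1839 and 1672 bp in crypts and 1923 and 1472 bp in villi. Reads of such copies cannot be assigned with certainty, so the values of each pair are uncertain between its genes.

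All 12 H3 genes and all 13 H4 genes had an H3K4me3 promoter peak in both compartments. Hist1h3d shared the widest peak of the family with Hist1h2ae, Hist1h2bg, Hist1h2bf and Hist1h2ad, which reached 7113 bp in crypts and 6855 bp in villi. The next widest in crypts were the peak of Hist1h2ac and Hist1h2bc, with 5393 bp in crypts and 5473 bp in villi, and that of Hist1h4a, Hist1h3a and Hist1h1a, with 4376 bp in crypts and 3974 bp in villi. In crypts the 3 narrowest peaks, listed above, were all at H4 genes, whereas in villi the narrowest, of 617 bp, was at Hist2h3c1, an H3 gene with 2 peaks in the window. Hist4h4, the lone gene of its cluster on chromosome 6, had H3K4me3 over 1961 bp in crypts and 1826 bp in villi.

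H3K4me1 was called in crypts alone at 3 members, each of which kept H3K4me3. Hist2h2aa2 had an H3K4me1 peak of 632 bp (score 25.8) in crypts and none in villi. Hist1h3e had one of 1040 bp with a score of 10.5, close to the lowest score of the lists, 10.0. Hist1h1e, a linker histone gene, had one of 747 bp (score 19.3). The score was taken as the −log10 p-value of the call and depends on the depth of the library. The part of depth in these differences was not tested.

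Hist3h2ba, an H2B gene that starts at 58948920 on chromosome 11, was the only member with H3K27me3. The H3K27me3 peak there spanned 4094 bp in crypts and 3332 bp in villi, and it covered the start site in both. H3K4me1 was called over 1742 bp in crypts and 1743 bp in villi. H3K4me3 was not called in crypts, where the nearest peak lay 4595 bp away, but a peak of 1285 bp with a score of 23.3 was called in villi. Hist3h2ba was thereby the only member with H3K4me3 and H3K27me3 together, in villi, where 7.86% of coding genes had both. The H3K27me3 peak had a score of 11.3 in crypts, and in the top 50% of that list by score no member had a peak. Hist3h2a, its H2A neighbour in the Hist3 cluster, had H3K4me3 over 3139 bp in crypts and 2823 bp in villi and no H3K27me3 at its start. Hist3h2a shares its annotated start site with Trim17, so their peaks cannot be told apart.

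The H3K4me3 peaks at the histone genes were fewer than the genes, since neighbours shared them. Members were served by 36 distinct peaks in crypts and 37 in villi, of which 17 in each compartment served several members. The median width of these peaks was 2446 bp in crypts (quartiles 1706 and 3091 bp) and 1933 bp in villi (1472 and 2576 bp). Over the peaks at all coding promoters it was 1852 bp in crypts (1332 and 2548 bp) and 1767 bp in villi (1251 and 2507 bp). The member peaks were thus wider in crypts, while in villi the quartiles lay close together. Ranked by score within the whole list, the member peaks sat at a median of 53.0% from the top in crypts and 51.7% in villi, whereas peaks at all coding promoters sat at 37.6% and 37.0%. The member peaks thus lay lower in the lists in both compartments.

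H3K4me3 peaks were narrower in villi at most members. Over the 58 members with H3K4me3 in both compartments, the median log2 ratio of the villi to the crypts width was −0.16 (quartiles −0.30 and −0.05), and 48 of 58 (82.8%) were narrower in villi. Over 12381 coding genes the median was −0.04 (−0.16 and 0.08), and 59.3% were narrower. With each distinct peak counted once, 28 of 36 were narrower and the median was −0.17. Coding genes whose crypts width lay within the quartiles of the members had a median of −0.04, the same as all coding genes. The depth of the libraries is unknown, and its part in these widths was not tested.

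**Figure D3:**
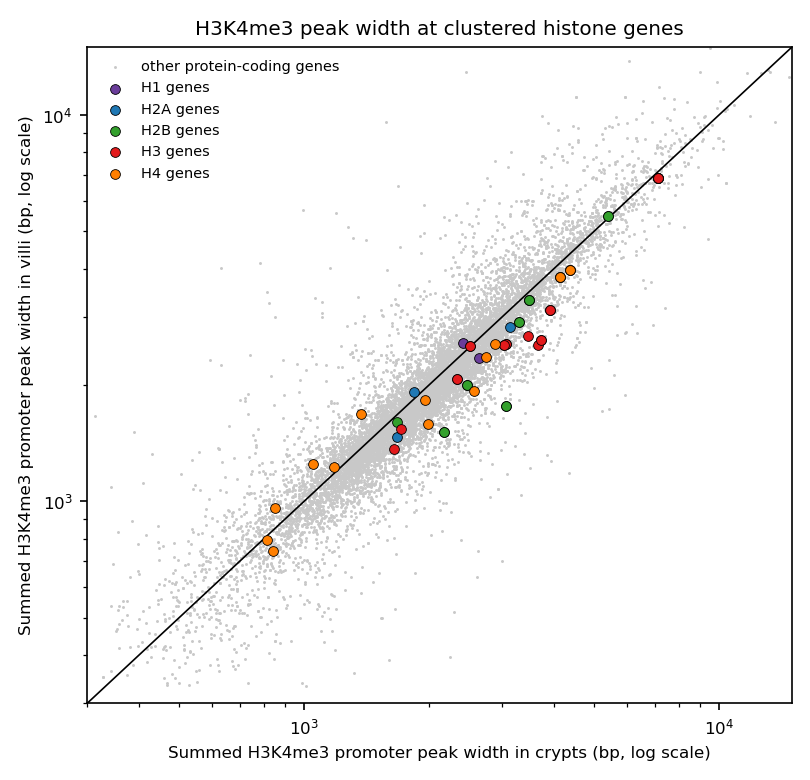
Summed H3K4me3 promoter peak width in crypts (x axis, bp, log scale) against villi (y axis, bp, log scale) for 58 clustered histone genes (coloured by class) and the other protein-coding genes (grey) with a peak in both compartments. The black line marks equal widths, and 48 of the 58 genes lie below it. Genes that share a peak lie on top of each other.

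The narrowing differed in size along the family. It was −0.30 at the median in the Hist1 proximal cluster, where 19 of 19 genes were narrower in villi, −0.14 in the Hist1 distal cluster (20 of 27) and −0.07 in the Hist2 cluster (7 of 10). By class, the median was −0.15 for H1 (3 of 4 narrower), −0.15 for H2A (13 of 15), −0.15 for H2B (12 of 14), −0.26 for H3 (11 of 12) and −0.13 for H4 (9 of 13). The change was largest at the pair Hist1h2ah and Hist1h2bk, whose shared peak measured 3075 bp in crypts and 1762 bp in villi, a log2 ratio of −0.80. The largest change in the other direction was at Hist1h4c, with 1372 bp in crypts and 1685 bp in villi (0.30), followed by Hist1h4d, with 1049 and 1248 bp (0.25). These differences between clusters and classes were not tested.

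Around the start sites, coverage by H3K4me3 peaks extended further than at other genes on the upstream side. At 1000 bp upstream, 65.5% of the members with H3K4me3 were covered in crypts and 61.0% in villi, against 22.4% and 20.5% of coding genes with H3K4me3. At 1000 bp downstream, 70.7% of members were covered in crypts and 45.8% in villi, against 66.1% and 60.6% of coding genes. At 1250 bp, 58.6% of members were covered upstream in crypts and 40.7% in villi, and 44.8% and 35.6% downstream, so which side fell more from crypts to villi depended on the distance. Many members have another member close upstream, so both sides hold peaks of neighbours.

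H3K4me1 flanked the start sites, with a dip at the start itself that was deeper in crypts. Among the 58 members with H3K4me3 in crypts, 12 (20.7%, 12.3 to 32.8%) had their start site inside an H3K4me1 peak. In villi these were 24 of 59 (40.7%, 29.1 to 53.4%). With 1 start site taken for every gene, its 5′ end, the share was 20.7% of members in crypts and 39.0% in villi, against 21.8% and 22.8% of coding genes with H3K4me3, so that the members were near other genes in crypts and above them in villi. Over all 67 members the start site was inside at 13 in crypts and 24 in villi, against 22.3% and 23.7% of coding genes at any of their start sites. At the 5′ end alone it was inside at 13 (19.4%) and 23 (34.3%), against 15.6% and 16.7%. H3K4me1 thus covered the start sites of more members in villi, while the number of distinct H3K4me1 peaks at members was lower, with 47 in villi and 60 in crypts. Examples are Hist1h4j, Hist1h4k and Hist1h2bm, which had 2 H3K4me1 peaks near but not over the start in crypts and 1 peak across it in villi. The start site was inside an H3K4me3 peak at 54 of 58 members in crypts (93.1%) and 55 of 59 in villi (93.2%). Of coding genes with H3K4me3, 96.2% and 95.1% had any start site inside, and 87.9% and 86.3% had the 5′ end inside.

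**Figure D4:**
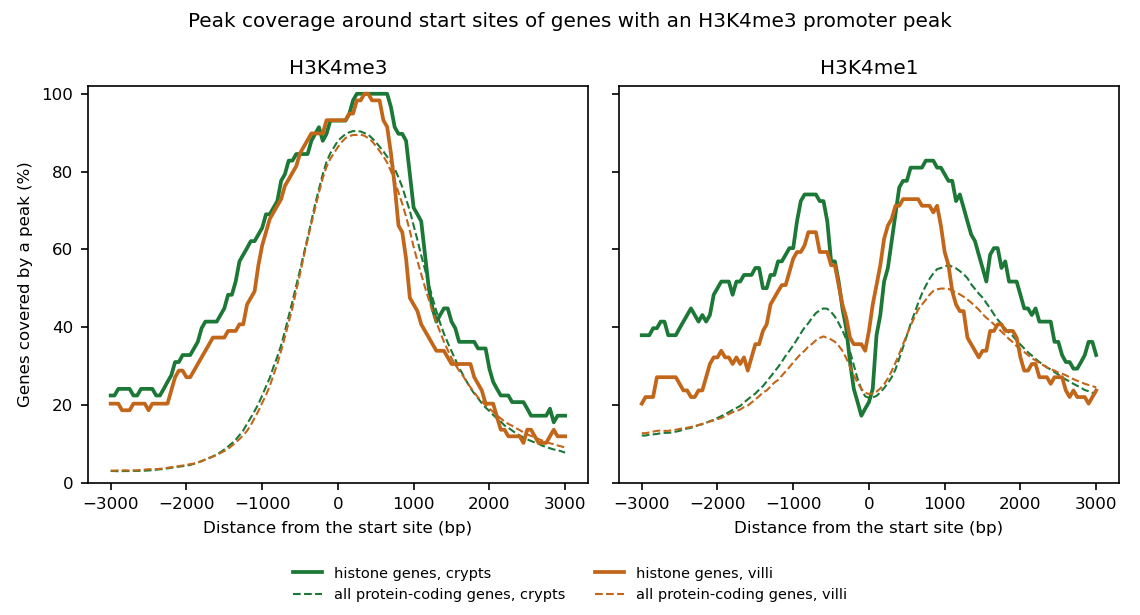
Percent of genes with an H3K4me3 promoter peak that are covered by an H3K4me3 peak (left) or an H3K4me1 peak (right) at each distance from the start site (x axis, bp, negative upstream) in crypts (green) and villi (orange). Solid lines are the histone genes (58 in crypts, 59 in villi) and dashed lines are all protein-coding genes. The villi H3K4me3 line of the histone genes lies below that of crypts at 1000 bp on both sides, and of their H3K4me1 lines that of crypts dips lower at the start.

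The genes form 3 larger clusters and 2 small ones when members less than 500 kb apart are grouped. The Hist1 proximal cluster (chr13:21715763-22043676) holds 23 members, the Hist1 distal cluster (chr13:23531050-23934851) holds 31, and the Hist2 cluster (chr3:96219865-96270132) holds 10. Hist3 (chr11:58948920-58956830) holds 2 members and Hist4 holds 1. H3K4me3 peaks covered 13.4% of the Hist1 proximal cluster in crypts and 9.86% in villi, 13.3% and 12.9% of the Hist1 distal cluster, and 28.9% and 24.3% of the Hist2 cluster. Along chromosome 13 the share was 1.04% in both compartments. In the top 50% of each list by score the order turned in both Hist1 clusters, with 2.14% of the proximal cluster covered in crypts and 3.64% in villi and 7.15% and 8.22% of the distal one. H3K4me1 covered 17.0% of the Hist1 proximal cluster in crypts and 12.6% in villi, 22.7% and 18.8% of the distal cluster, and 32.5% and 19.9% of the Hist2 cluster. For H3K4me1 the order turned in the top 50% in the Hist1 proximal cluster, with 8.04% in crypts and 8.58% in villi, and held in the distal cluster (16.3% and 11.3%) and in Hist2 (18.1% and 14.4%). In the Hist1 proximal cluster 11687 bp were covered by H3K4me3 in crypts only and 101 bp in villi only, while in the distal cluster 4608 and 2905 bp were.

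No peak of H3K27me3 or H3K9me3 was called in the Hist1 distal or Hist2 cluster in either compartment. Both marks cover little of these chromosomes, so their absence from a cluster says little. H3K27me3 covered 0.803% of chromosome 13 in crypts and 1.28% in villi, and 0.677% and 1.14% of chromosome 3. H3K9me3 covered 0.126% and 0.0940% of chromosome 13 and 0.0641% and 0.0450% of chromosome 3. In the Hist1 proximal cluster, H3K27me3 covered 8.69% in crypts and 10.7% in villi, none of it within 1 kb of a member start. The nearest H3K27me3 peak lay 19797 bp from the start of Hist1h2ah. These peaks lay around Pom121l2 and Prss16, the latter a serine protease of the thymus, with the widest at 12898 bp in crypts and 20044 bp in villi, and in villi another 2 narrow peaks of 532 and 881 bp lay closer to the middle of the cluster. Zfp184, the other coding gene in the cluster, had H3K4me3 in both compartments and no H3K27me3.

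Of the other coding genes in the Hist1 distal cluster, Hfe, a regulator of iron uptake, and Slc17a4 had H3K4me3 within 1 kb of a start site in both compartments, and Trim38, Slc17a1, Slc17a2 and Slc17a3 had none there. A peak inside Trim38, away from its start sites, measured 1357 bp in crypts and 2302 bp in villi. The 1487373 bp between both Hist1 clusters hold 36 vomeronasal receptor genes (Vmn1r), none of which had H3K4me3 within 1 kb of a start site, and 4 other coding genes, of which 3 had it in crypts and 3 in villi. H3K4me3 covered 1.73% of this interval in crypts and 1.44% in villi. Both values are far below those of the clusters on either side.

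The Hist1 proximal cluster also holds 31 tRNA genes of the RefSeq annotation, all over 2 kb from a coding start site. They were looked at after it was seen that many of its peaks lie at no coding gene. Of the 13 H3K4me3 peaks in crypts at neither a member nor another coding start, 12 lay within 1 kb of a tRNA gene, and in villi 7 of 8 did. Of the 31 tRNA genes, 20 (64.5%) had H3K4me3 within 1 kb in crypts and 11 (35.5%) in villi. Of 349 tRNA genes over 2 kb from a coding start site genome-wide, these included, 46.1% had it in crypts and 42.7% in villi. H3K4me1 lay near 14 of the 31 in crypts (45.2%) and 11 in villi (35.5%), close to the genome-wide 41.0% and 38.4%. No tRNA gene of the annotation lies in the other clusters.

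**Figure D5:**
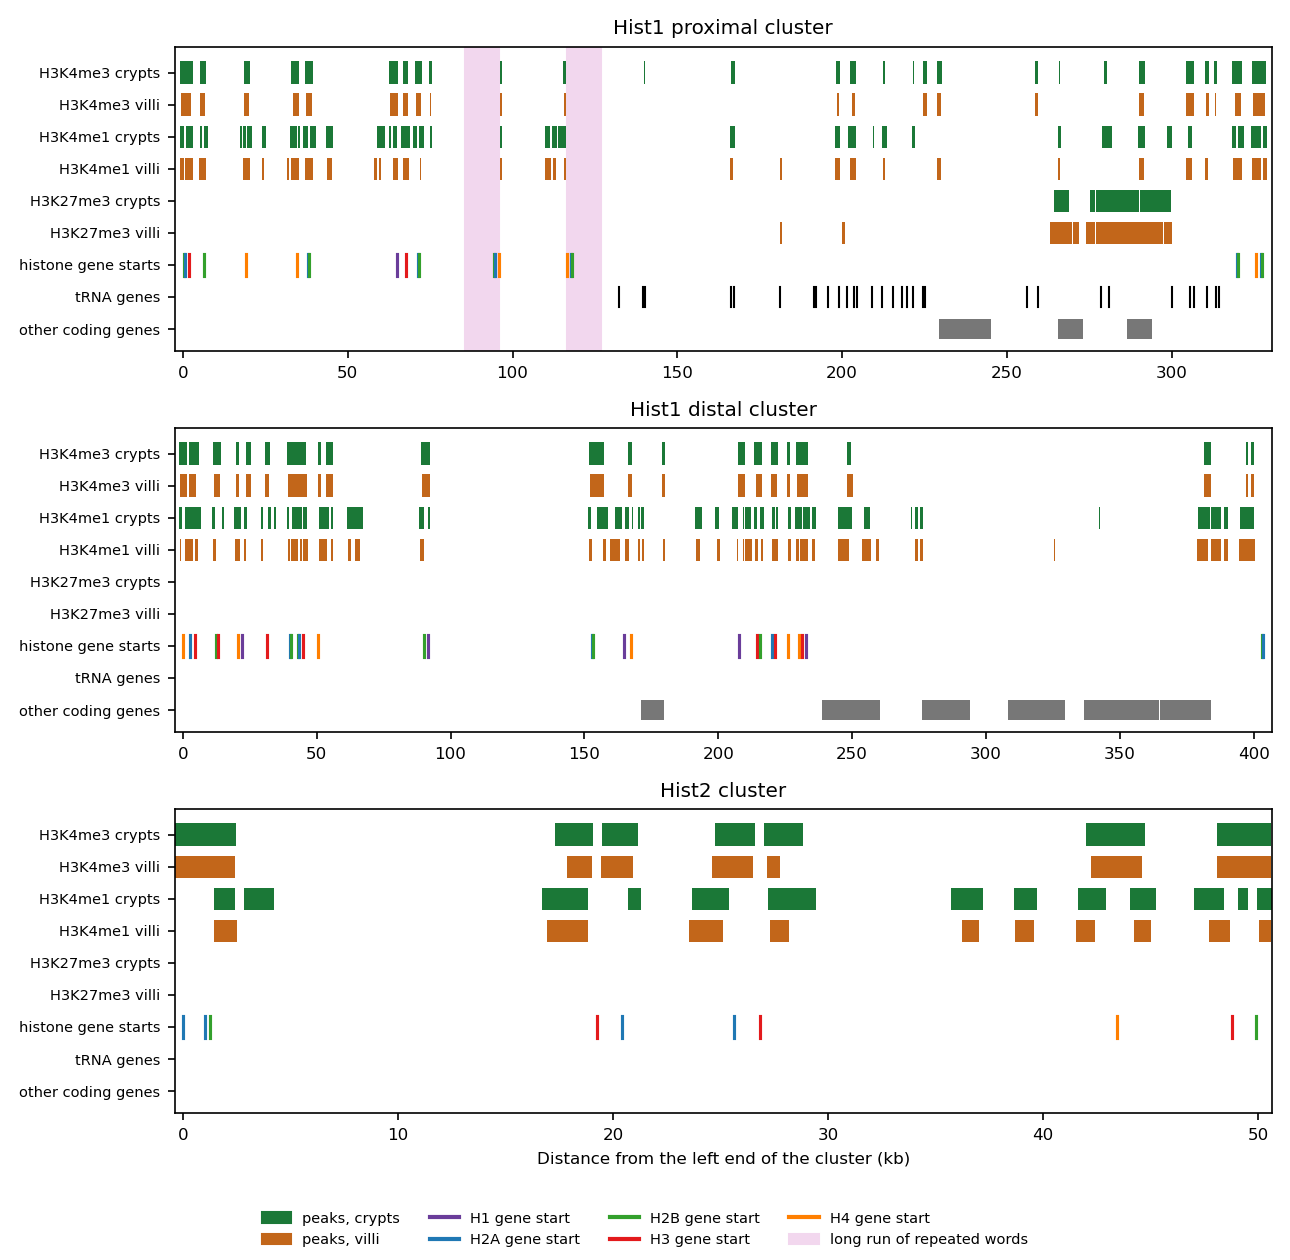
Peaks along the Hist1 proximal, Hist1 distal and Hist2 clusters (x axis, kb from the left end of each cluster) in crypts (green) and villi (orange), with the start sites of histone genes coloured by class, tRNA genes and other coding genes. H3K4me3 blocks lie at most histone gene starts, while in the Hist1 proximal cluster 12 of the 28 H3K4me3 blocks in crypts are at a member, H3K27me3 appears in the Hist1 proximal cluster only, and the shaded repeated runs hold no peak.

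The histone genes outside the clusters are mostly expressed throughout the cell cycle, from polyadenylated mRNAs. How each gene listed here is expressed was not examined. Of 11 histone genes outside the clusters, testis and oocyte genes aside, 11 had H3K4me3 in crypts and 10 in villi. The share of all coding genes was 57.7% and 57.9%. Of the 10 with both, 9 were narrower in villi (median log2 ratio −0.16), against 59.3% of coding genes (median −0.04). H2afx, the variant phosphorylated at DNA breaks, had 3124 bp in crypts and 1761 bp in villi (−0.83), and Cenpa, the histone H3 of centromeres, had 2647 and 1594 bp (−0.73). H3f3a and H3f3b, which encode the replacement histone H3.3, had log2 ratios of −0.05 and −0.03. H1fx had H3K27me3 over 3313 bp in crypts and 5597 bp in villi, and its H3K4me3 peak of 645 bp was called in crypts only. H2afy2, which encodes a macroH2A, had H3K27me3 over 3495 bp in crypts and 4758 bp in villi, with H3K4me3 over 1018 and 929 bp. These were the 2 of the 11 with H3K27me3, which 13.1% of all coding genes had in crypts and 16.1% in villi. None of 4 testis or oocyte histone genes outside the clusters had H3K4me3.

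Genes that make and process histone mRNAs, and the chaperones that carry histones, kept H3K4me3 in both compartments, at 17 of 17 and 8 of 8 genes. Of all coding genes, 56.6% had it in both. The mRNA factors had a median log2 width ratio of −0.10, with 14 of 17 narrower in villi, and the chaperones of −0.24, with 8 of 8 narrower. Over all coding genes the median was −0.04, with 59.3% narrower. Npat, the coactivator of the histone locus body, had 2997 bp in crypts and 2758 bp in villi (−0.12), and Slbp had 2251 and 1957 bp (−0.20). Hinfp, an activator of H4 genes, had 1761 and 1979 bp (0.17). Among the chaperones, Asf1a had 2796 and 2260 bp (−0.31) and Chaf1b had 1680 and 1386 bp (−0.28). For comparison, the proliferation marker Mki67 had 4044 and 2166 bp (−0.90), and 5 of 6 enterocyte markers were wider in villi, with a median of 0.18 over the 6.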

How the data were processed

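The lists of 8 of 12 libraries were used. Alignment to mm10 and dm6 was done by the authors with Bowtie 1.1.2 with 1 alignment kept per read pair, followed by removal of duplicates and peak calling per library with MACS2 2.1.1. The deposited lists give a position and a score in the form of a −log10 p-value, from which a q-value on that scale cannot be told apart. The score is not scaled by the spike-in and was used only to rank peaks within a list. No read counts are given, so depth is unknown. The lists of H3K9me2, with few regions, and the inputs were not used here. Methods and labels differ in the amount of chromatin and the kind of beads.

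GENCODE M21 on GRCm38 gave the start sites of protein-coding transcripts, and each peak lies within its chromosome lengths. An overlap of 1 bp counted. Repeated words are 50-base words within 1 kb of a start site that occur more than once in the assembly, on either strand. Widths are sums over the peaks in the window. Computations used Python 3.11.15 and NumPy 2.4.6, with Matplotlib 3.10.9 for figures, and overlaps were tested on simulated data. Members and lists were chosen with earlier results of these data known. Genes were named if they lacked H3K4me3, carried H3K27me3, had H3K4me1 in 1 compartment, had the widest, narrowest or most changed H3K4me3 peaks, were testis genes or near-identical pairs, or lay in Hist3 or Hist4. Other names were chosen as examples, and tRNA genes after the peaks were seen. Alternatives covered the window, the top 50% of each list, start sites, repeated words, peak pairing, cluster bounds and gaps, and stem-loop mismatches.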

Additional observations from a re-analysis of the deposited data

How the results depend on the processing

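Windows of 500 bp and 2 kb, the 5′ end of the gene model and, added after seeing the data, the start codon left each count of members within 1.5 times its value. With the start site itself inside the peak, H3K4me1 was called at 13 members in crypts, 24 in villi and 10 in both. In the top 50% of each list by score, H3K4me3 was called at 25 members in crypts, 33 in villi and 23 in both, H3K4me1 at 43 in crypts, 48 in villi and 37 in both, and H3K27me3 at 0 in crypts and 0 in both. Among the 34 members with at most 20% of repeated words, which are fewer by construction, H3K4me3 was called at 29 in crypts and 30 in villi and H3K4me1 at 32 and 31. In the top 50%, H3K4me3 covered 2.14% of the Hist1 proximal cluster in crypts and 3.64% in villi, 7.15% and 8.22% of the distal cluster, 18.3% and 13.9% of Hist2 and 39.7% and 35.7% of Hist3, so that the order of the compartments turned in both Hist1 clusters and in Hist3. H3K4me1 covered 8.04% of Hist1 proximal in crypts and 8.58% in villi and 12.1% and 36.3% of Hist3, where the order turned too, and 16.3% and 11.3% of Hist1 distal and 18.1% and 14.4% of Hist2. H3K27me3 covered 0% of Hist3 in crypts and 40.1% in villi. The lists were cut by rank, and the cause of the turned orders was not tested. With flanks of 10 kb, H3K4me3 covered 16.5% of Hist3 in crypts and 18.4% in villi. Gaps of 200 kb and 1 Mb gave the same 5 groups. The median width ratio was −0.15 over pairs of 1 crypts and 1 villi peak and −0.17 over distinct peaks. No paired analysis was possible because there was 1 library per compartment and modification and no result comes from a test. Depth is unknown, so a missing peak does not show a missing mark.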
